A study of Homo sapiens with 6 samples.

Results

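VIM and VIM-AS1 are a pair of genes that overlap on opposite strands of chromosome 10. VIM (ENSG00000026025) encodes vimentin, and VIM-AS1 (ENSG00000229124) is annotated as an antisense gene. They are 2 of the 57209 genes in the count tables, and they were chosen by their counts in these 6 libraries, which were already known to differ between the groups. The values of that contrast are therefore given for them as a description, with no test. The samples were MB157 cells, an established human triple-negative breast cancer line, which carried Cas9 according to the sample titles, while the series' design text says that the cells stably expressed SOX9. Both groups were grown with puromycin. The SOX9 sgRNA group was transfected with a guide RNA labelled as a knockout guide for SOX9, a transcription factor, and the control sgRNA group was transfected with a control guide RNA. Cells of both groups were collected after 4 days and sorted for the 50% with the highest sgRNA expression. Each group has 3 libraries of total RNA, which the labels call technical replicates, so that standard errors and p-values measure only the spread between these libraries. The sources used here do not say whether the line is a clone or a pool. The study set out to find genes that respond to SOX9 in triple-negative breast cancer.

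Vimentin is an intermediate filament protein of mesenchymal cells. It assembles into filaments that anchor organelles and give a cell mechanical resilience, and kinases take the filaments apart by phosphorylation during migration and mitosis. Epithelial cells build their filaments from keratins, and vimentin RNA in carcinoma cells is widely used as a mark of epithelial-mesenchymal transition and is common in triple-negative lines. VIM-AS1 starts inside VIM and runs past the start of VIM on the other strand. In human colon cancer cells its RNA has been described as forming a hybrid with the DNA at the start of VIM and as helping VIM transcription.

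On GRCh37, the build of the tables, VIM lies on the plus strand at chr10:17270258-17279592 and VIM-AS1 on the minus strand at chr10:17256238-17271984. The VIM annotation holds 4965 exon bases in 9 blocks, and that of VIM-AS1 holds 1992 exon bases in 5 blocks. The first exon of VIM-AS1, of 641 bases, lies wholly inside a VIM exon block of 710 bases, and both end at the same base, where 4 annotated VIM exons end. A further annotated gene, ENSG00000234961, lies opposite the downstream exons of VIM on the minus strand, at chr10:17275324-17276832. It has 706 exon bases, of which 619 (87.7%) lie opposite VIM exons. In all, 1260 bases (25.4%) of the VIM exons and 641 bases (32.2%) of the VIM-AS1 exons lie opposite an exon of the other strand.

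The sequences at the starts of both genes show where the strands meet. They are from RefSeq on GRCh38.p14, a later build than that of the tables, each read 5′ to 3′ on its own gene's strand. The first 2 are windows from 250 bases before to 50 bases after a start, VIM at chr10:17227991-17228290 on the plus strand and VIM-AS1 at chr10:17229936-17230235 on the minus strand, with the GC box GGGCGG in capitals.
VIM: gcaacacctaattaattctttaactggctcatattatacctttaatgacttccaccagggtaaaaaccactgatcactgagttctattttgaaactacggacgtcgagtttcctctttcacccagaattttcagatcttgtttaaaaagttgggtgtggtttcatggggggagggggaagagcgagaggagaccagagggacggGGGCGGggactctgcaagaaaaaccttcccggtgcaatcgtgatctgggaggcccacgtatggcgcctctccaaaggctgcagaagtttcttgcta
VIM-AS1: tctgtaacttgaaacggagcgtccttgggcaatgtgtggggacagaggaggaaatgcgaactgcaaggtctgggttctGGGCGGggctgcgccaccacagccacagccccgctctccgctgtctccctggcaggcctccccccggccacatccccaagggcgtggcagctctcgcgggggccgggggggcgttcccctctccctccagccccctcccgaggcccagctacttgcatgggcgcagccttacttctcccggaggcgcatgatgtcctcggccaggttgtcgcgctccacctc
The last 50 bases of the VIM-AS1 window are the first bases of its RNA, and they are the complement of the end of a VIM exon. They lie at chr10:17229936-17229985, inside the coding sequence of 3 of the 4 annotated VIM transcripts that hold them.
VIM, plus strand: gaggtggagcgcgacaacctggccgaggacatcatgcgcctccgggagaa
VIM-AS1, minus strand: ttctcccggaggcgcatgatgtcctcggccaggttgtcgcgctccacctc

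The RefSeq start behind the VIM window lies 1037 bases upstream of the first exon of the VIM-201 transcript, so that the window is not that of this transcript. VIM-AS1 has 2 windows in the same source, and what follows holds only for the one printed above. G and C made up 48.0% of the VIM window and 68.0% of the VIM-AS1 window. GGGCGG, searched on both strands, began 46 bases before the start in the VIM window and 172 bases before it in the VIM-AS1 window. This motif is in 45.0% of the 35116 windows of this length in the table. The SOX core motif, searched on both strands as the letters ACAAAG, as ACAATG and also as AACAAT, is in 29.1% of all windows and in neither of these. The AP-1 site, searched as TGACTCA and also in the form TGAGTCA, is in 4.95% of all windows, TATAAA is in 11.5%, and neither is in the VIM or VIM-AS1 window.

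Counts on genes were low in all 6 libraries, at 776125 to 1018854 in the SOX9 sgRNA group and 777960 to 881655 in the control group. These totals are fragments counted on gene rows, and the number of reads sequenced is not given here. Counts were found on 20207 to 21082 genes in SOX9 sgRNA libraries and on 18326 to 18818 in control libraries, so that the number of detected genes moves with the group. Its part in the results below was not tested. SOX9 itself, the targeted gene, had 37, 39 and 60 counts in SOX9 sgRNA libraries and 38, 52 and 44 in control libraries. Its log2 fold change, SOX9 sgRNA over control, was -0.22 (SE 0.26, edgeR adjusted p = 0.70), within the spread of the libraries. Whether these counts are SOX9 RNA was not tested, and they neither check nor contradict the labels. Of 7959 genes tested, 238 (2.99%) were higher and 479 (6.02%) were lower with the SOX9 sgRNA, 9.01% in all. CPM is a gene's count relative to the scaled total of its library. Keratins 8, 18 and 19 and the epithelial adhesion genes EPCAM and CDH1 were all detected in every library. The oestrogen and progesterone receptor genes ESR1 and PGR had 12 and 26 counts in all, while ERBB2, which encodes HER2, had 1021. Of 9 blood and endothelial markers matched, 4 had counts. The most counted of them had 82 counts, and it was tested and not called (log2 fold change 0.90). PTPRC had 1 count, and CD3E, VWF and CDH5 had 0, where a count of 0 allows up to 2.94 to 3.87 CPM in a library, before scaling.

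VIM counts were lower with the SOX9 sgRNA. The VIM row held 59, 50 and 85 counts in SOX9 sgRNA libraries 1 to 3 and 153, 181 and 167 in control libraries 1 to 3. As CPM, these were 71.1, 65.0 and 82.7 CPM in SOX9 sgRNA libraries and 204, 229.8 and 240.1 CPM in control libraries. The highest SOX9 sgRNA library was below the lowest control library. The mean was 72.9 ± 9.03 CPM with the SOX9 sgRNA and 225 ± 18.5 CPM with the control sgRNA (SD, n = 3 each), or 32.5% of the control level. The fitted log2 fold change was -1.61 (SE 0.17). Within each group the VIM counts varied about as much as counting error alone gives, the chi-square per degree of freedom being 1.00 in SOX9 sgRNA libraries and 1.11 in control libraries. In bulk RNA, fewer cells with vimentin RNA and less of it per cell cannot be told apart.

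VIM-AS1 was far more abundant than VIM in the tables, and it was lower to a similar degree. Its row held 1928, 1938 and 2373 counts in SOX9 sgRNA libraries and 5118, 5102 and 4495 in control libraries. These were 2322, 2519 and 2310.04 CPM in SOX9 sgRNA libraries and 6833, 6479 and 6463 CPM in control libraries. Again no library of one group reached the range of the other. The mean was 2384 ± 117 CPM with the SOX9 sgRNA and 6591 ± 209 CPM with the control sgRNA (SD, n = 3 each), or 36.2% of the control level, and the fitted log2 fold change was -1.47 (SE 0.059). VIM-AS1 took 0.232%, 0.250% and 0.233% of all counts in SOX9 sgRNA libraries and 0.608%, 0.579% and 0.578% in control libraries. It ranked 35th, 30th and 34th by counts in SOX9 sgRNA libraries and 13th, 15th and 15th in control libraries, while VIM ranked between 1927th and 2339th in SOX9 sgRNA libraries and between 742nd and 908th in control libraries. Its counts varied within the groups beyond counting error, the chi-square per degree of freedom being 4.75 in SOX9 sgRNA libraries and 4.94 in control libraries. This measure rises with the number of counts, so it does not compare VIM-AS1 with VIM. The SD of log2 CPM was smaller for VIM-AS1, at 0.070 in SOX9 sgRNA and 0.045 in control libraries. For VIM it was 0.18 in SOX9 sgRNA and 0.12 in control libraries.

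Both rows thus had groups that did not overlap, with the SOX9 sgRNA group lower. That was so for 12.8% of all tested genes (24.5% in either direction), and nothing is read from the members' place among them, since this contrast chose them. The sum of both rows was 1987, 1988 and 2458 counts in SOX9 sgRNA libraries and 5271, 5283 and 4662 in control libraries. In CPM it averaged 2457 ± 110 with the SOX9 sgRNA and 6816 ± 191 with the control sgRNA (SD, n = 3 each), a difference of mean log2 CPM of -1.47. The sum follows VIM-AS1, which holds most of its counts.

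**Figure D1:**
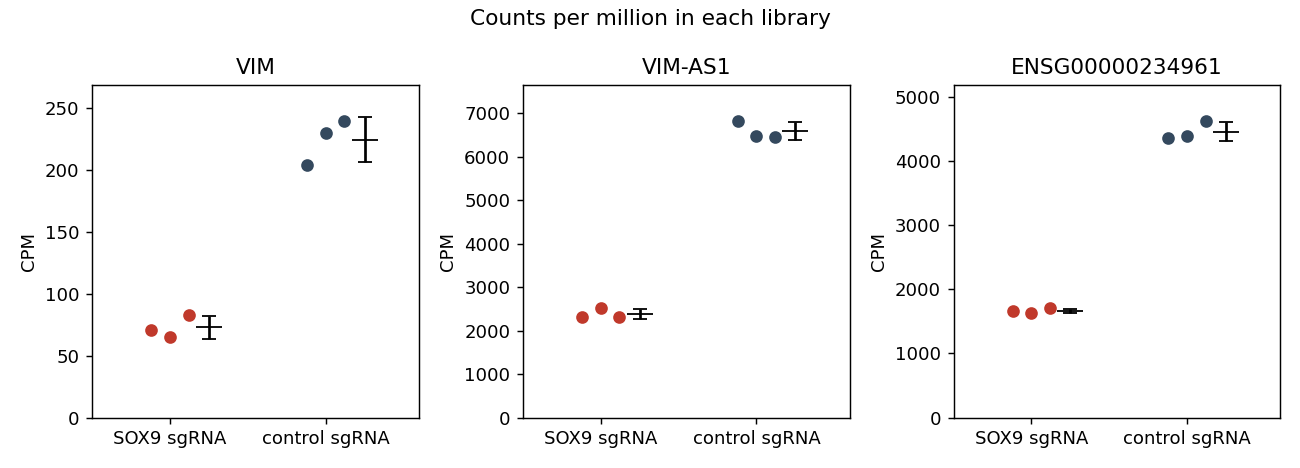
Points are the CPM of single libraries, and the bars beside them give the mean ± SD of 3 libraries, with SOX9 sgRNA on the left and control sgRNA on the right of each panel. VIM, VIM-AS1 and ENSG00000234961 each show SOX9 sgRNA libraries well below all control libraries, on y axes of different scale.

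The share of the pair's counts that lay on the VIM row was small in every library, and the groups did not separate by it. VIM made up 2.97%, 2.52% and 3.46% of the pair in SOX9 sgRNA libraries 1 to 3. In control libraries 1 to 3 it made up 2.90%, 3.43% and 3.58%. The ranges of the groups overlapped, and the 95% Wilson interval of each library, which covers counting error only, overlapped that of every other, from 1.91% to 4.26% over SOX9 sgRNA libraries and from 2.48% to 4.15% over control libraries. The mean share was 2.98% ± 0.472 with the SOX9 sgRNA and 3.30% ± 0.356 with the control sgRNA (SD, n = 3 each), a difference smaller than either SD. Over the groups, 194 of 6433 counts (3.02%, interval 2.63 to 3.46) were on VIM in SOX9 sgRNA libraries and 501 of 15216 (3.29%, interval 3.02 to 3.59) in control libraries. The log2 ratio of VIM to VIM-AS1 was -5.04 ± 0.24 with the SOX9 sgRNA and -4.88 ± 0.17 with the control sgRNA, a difference of -0.16. This ratio is taken within a library and does not depend on scaling between libraries.

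**Figure D2:**
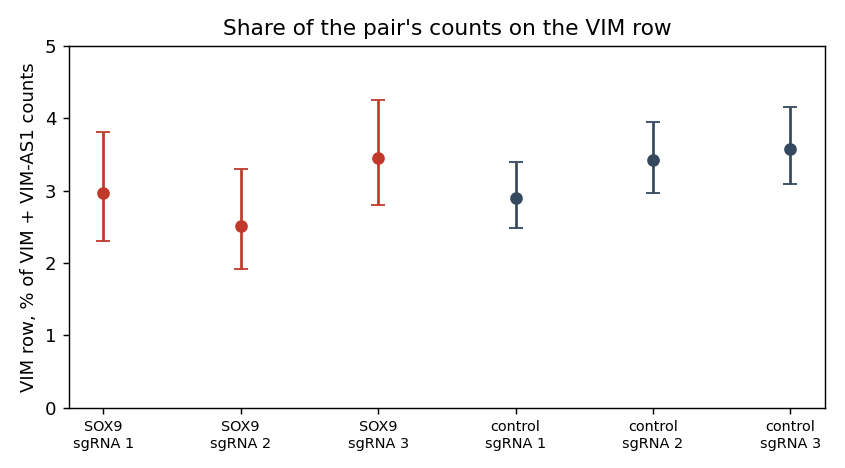
The y axis is the percent of the summed VIM and VIM-AS1 counts that lay on the VIM row in each library, with 95% Wilson intervals for counting error. SOX9 sgRNA libraries lie between 2.52% and 3.46% and control libraries between 2.90% and 3.58%, and the intervals overlap.

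Per length the rows differed still more. VIM averaged 14.7 ± 1.82 CPM per kb of exon with the SOX9 sgRNA and 45.3 ± 3.72 with the control sgRNA, and VIM-AS1 averaged 1197 ± 58.8 CPM per kb with the SOX9 sgRNA and 3309 ± 105 with the control sgRNA. The level of VIM-AS1 per kb was 82.5 ± 13.5 times that of VIM in SOX9 sgRNA libraries and 73.6 ± 8.64 times in control libraries. The tables give 1 count per gene and not per exon, so where along VIM-AS1 its counts lay is not known. Were they all in the exon that lies inside VIM, its level would be 3719 ± 183 CPM per kb with the SOX9 sgRNA and 10283 ± 326 with the control sgRNA. The library kit keeps the strand of the RNA, and the file headers record strand setting 1, which gives a fragment to the strand of its first read. The sources used here do not say whether that read runs in the direction of the RNA in this kit. Whether counts on the VIM-AS1 row were VIM-AS1 RNA or RNA of the VIM strand was not tested, and the values of both rows are uncertain in this respect. The same setting was used for the whole tables, so the doubt holds for every gene value given here, SOX9, keratins, transcription factors and neighbours included: a named value is the count on that gene's row.

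ENSG00000234961, the other minus-strand gene opposite VIM, was not part of the choice and was looked at after its values were seen. It held 1379, 1253 and 1747 counts in SOX9 sgRNA libraries and 3258, 3453 and 3219 in control libraries. These were 1661, 1628 and 1701 CPM in SOX9 sgRNA libraries and 4349.5, 4385 and 4628 CPM in control libraries. The groups did not overlap, and SOX9 sgRNA libraries were the lower ones. The mean was 1663 ± 36.2 CPM with the SOX9 sgRNA and 4454 ± 152 CPM with the control sgRNA (SD, n = 3 each), or 37.3% of the control level, and the fitted log2 fold change was -1.42 (SE 0.062). It had 71.5, 64.7 and 73.6 counts per 100 VIM-AS1 counts in SOX9 sgRNA libraries and 63.7, 67.7 and 71.6 in control libraries, ranges that overlap. Per kb of exon it averaged 2356 ± 51.2 CPM with the SOX9 sgRNA and 6309 ± 215 CPM with the control sgRNA, above VIM in both groups. Its order against VIM-AS1 depends on the length used: over all exon bases it was above VIM-AS1, and over the bases opposite VIM alone, at 2687 ± 58.4 CPM per kb with the SOX9 sgRNA and 7196 ± 245 with the control sgRNA, it was below. VIM-AS1 and ENSG00000234961 share no exon, but a spliced fragment that touches both may count for each, since the counting allowed a fragment to count for every gene it overlaps. Of the counts on all 3 rows, VIM held 1.77% ± 0.240 in SOX9 sgRNA libraries and 1.99% ± 0.176 in control libraries.

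A coding gene with most of its locus' counts on the row opposite was common in these tables. There were 1680 pairs of a noncoding row and a single protein-coding gene opposite it with at least 100 counts between them. The coding row held a median of 20.2% of a pair's counts (quartiles 6.95% and 66.1%), and under 50% in 69.0% of pairs. The coding share of the VIM pair over all libraries was 3.21%, and 187 pairs had a lower one. VIM-AS1 was the 8th of these noncoding rows by counts. Leaving out the rows opposite VIM, both rows were tested in 757 pairs. The noncoding row was called lower in 103 of these, and in that set the coding row was also called lower in 15 and called higher in 0, with a log2 fold change below 0 in 78. The noncoding row was called higher in 34, and there the coding row was also called higher in 7 and called lower in 0. Without the limit of 100 counts, 8.96% of all tested rows opposite a single protein-coding gene were called lower and 3.75% higher. Of all tested genes, 6.02% were called lower and 2.99% higher, with a median log2 fold change of 0.01. Whether the rows of a pair change together was not tested.

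Neither of the tested genes around the locus passed the test. Within 500 kb of VIM and VIM-AS1 lay 14 genes other than ENSG00000234961, of which 4 had at least 10 counts over the 6 libraries, 5 had 1 to 9 and 5 had 0. RSU1, which encodes a Ras suppressor at cell adhesions, averaged 28.96 ± 5.33 CPM with the SOX9 sgRNA and 25.3 ± 5.17 CPM with the control sgRNA (log2 fold change 0.19, SE 0.35, edgeR adjusted p = 0.84). ENSG00000229190 lies opposite STAM, an endosomal sorting gene. It averaged 222 ± 1.86 CPM with the SOX9 sgRNA and 224 ± 8.82 CPM with the control sgRNA (log2 fold change -0.01, SE 0.13, edgeR adjusted p = 0.98). STAM itself had 10 counts and ST8SIA6-AS1 had 14, and neither was tested. The groups overlapped for RSU1 and for ENSG00000229190. Of all tested genes, 24.5% had groups that did not overlap, in either direction. The rows at the VIM locus were picked with their values known, so the neighbours are not compared with them.

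Rows with a pattern most like that of the pair were sought among 2455 tested genes whose average log2 CPM was 6 or more. Likeness is the root mean square difference, over the 6 libraries, of log2 CPM centred on the mean of each gene's own group means. Most of the pattern compared in this way is the difference between the groups. Nearest to VIM was ENSG00000234961, at 0.129 log2 units. ENSG00000259279, which lies opposite THBS1, followed at 0.153, then ENSG00000269926 opposite DDIT4 at 0.163 and ENSG00000254208 opposite E2F5 at 0.164. VIM-AS1 was the 5th row nearest to VIM, at 0.176, ahead of MELTF-AS1, opposite MELTF, at 0.190. Nearest to VIM-AS1 were ENSG00000254208 at 0.0553, ENSG00000234961 at 0.0787 and ENSG00000269926 at 0.0790. ENSG00000266037 followed at 0.146, and VIM was the 7th. The row opposite DDIT4, a stress-induced inhibitor of mTOR signalling, averaged 253 ± 16.3 CPM with the SOX9 sgRNA and 755 ± 6.04 CPM with the control sgRNA.

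**Figure D3:**
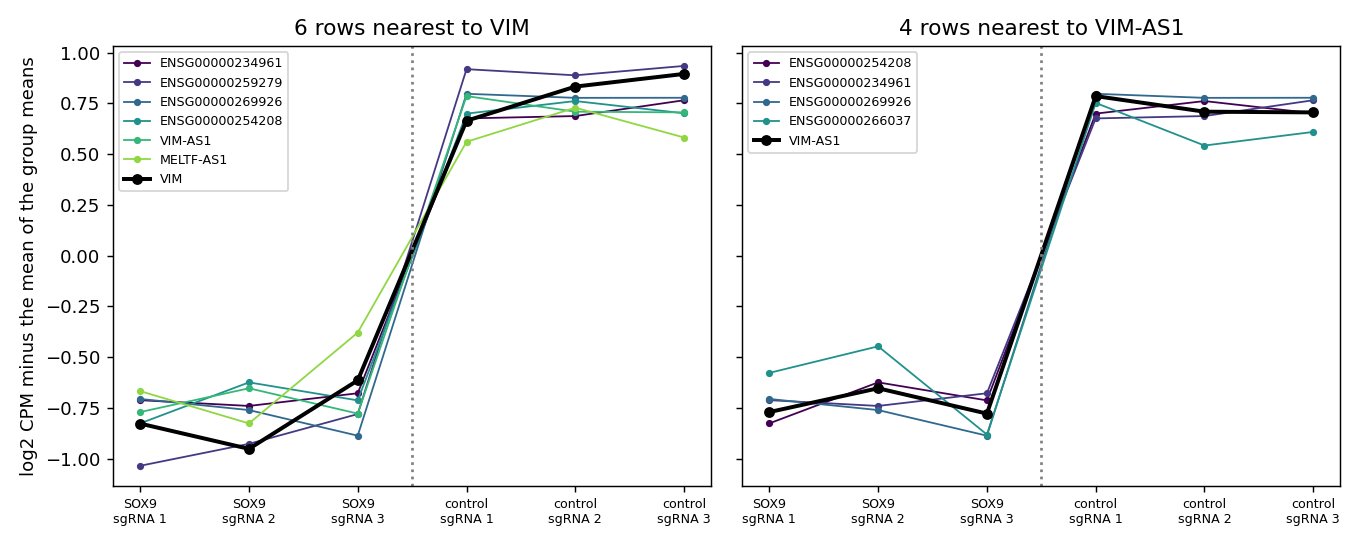
The y axis is log2 CPM minus the mean of a gene's own group means, for each of the 6 libraries, with the 3 SOX9 sgRNA libraries left of the dotted line. The 6 rows nearest to VIM lie within 0.190 of it (root mean square), the 4 nearest to VIM-AS1 lie within 0.146 of it, and all are low in SOX9 sgRNA libraries.

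Genes whose products make, bind, modify or regulate vimentin, or mark the same cell states, were counted in 11 lists. Of 239 genes, 235 matched the tables and 112 were tested. Of these, 4 (3.57%) were called higher, against 2.99% of all genes, and 8 (7.14%) lower, against 6.02% of all genes, shares near those of all genes. The median log2 fold change was 0.01 over the listed genes and 0.01 over all genes tested. Each of the rows opposite a single protein-coding gene was read beside that gene as well. Of 42 such rows tested, 4 were called higher and 11 lower, or 9.52% and 26.2%, where 3.75% of all 3014 tested rows of this kind were called higher and 8.96% lower. A listed gene can be in more than 1 list. For each single list below, the shares to compare with remain 2.99% higher and 6.02% lower, and no list was tested as a set.

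Of 8 tested intermediate filament genes other than VIM, 2 were called lower and the others did not pass the test, with a median log2 fold change of -0.27. Keratin 19 (KRT19) pairs with keratin 8 in simple epithelia. It was 161, 183 and 226 CPM in SOX9 sgRNA libraries and 324, 319 and 312 CPM in control libraries, with no overlap (log2 fold change -0.74, SE 0.13, edgeR adjusted p = 1.83e-05). Keratin 7 (KRT7) was 30.1, 32.5 and 30.2 CPM in SOX9 sgRNA libraries and 70.8, 61.0 and 50.3 CPM in control libraries (log2 fold change -0.97, SE 0.29, edgeR adjusted p = 0.018). The KRT7 call was lost without SOX9 sgRNA library 1 (-0.96) or 3 (-0.96) or control library 1 (-0.86). KRT7-AS, 1 of 2 rows opposite KRT7 and chosen after its values were seen, averaged 932 ± 17.1 CPM with the SOX9 sgRNA and 1782 ± 39.0 CPM with the control sgRNA (log2 fold change -0.94, SE 0.073, edgeR adjusted p = 3.70e-17). Keratin 8 (KRT8) had a level of 120 ± 19.7 CPM per kb with the SOX9 sgRNA and 111 ± 3.52 with the control sgRNA, and the groups overlapped (log2 fold change 0.11, SE 0.098, edgeR adjusted p = 0.57). Exons of KRT8 and of the keratin 18 gene KRT18 lie opposite each other over 525 bases. KRT19 had 81.4 ± 14.03 CPM per kb with the SOX9 sgRNA and 136 ± 2.66 with the control sgRNA. KRT8 and KRT19 thus had more counts per length than VIM in each group, while KRT7, KRT18 and KRT23 had lower means. KRT7 averaged 7.56 CPM per kb with the SOX9 sgRNA and 14.8 with the control sgRNA. KRT18 averaged 13.6 CPM per kb with the SOX9 sgRNA, where its libraries overlapped those of VIM, and 10.8 with the control sgRNA. The lamin gene LMNA, which encodes the filaments of the nuclear envelope, averaged 126 ± 10.4 CPM with the SOX9 sgRNA and 152 ± 11.99 CPM with the control sgRNA (log2 fold change -0.27, SE 0.17, edgeR adjusted p = 0.36). Genes of other filaments were hardly counted and are named outside the rule: the muscle gene DES and the progenitor gene NES had 0 counts and the glial gene GFAP had 37.

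Among 16 tested genes for linkers and vimentin-binding proteins, 1 was called lower and 1 higher, with a median log2 fold change of -0.01. PPL encodes periplakin, which ties filaments to desmosomes, and it was higher, at 94.9 ± 16.9 CPM with the SOX9 sgRNA and 57.2 ± 13.7 CPM with the control sgRNA (log2 fold change 0.73, SE 0.23, edgeR adjusted p = 0.029). The PPL call was lost without SOX9 sgRNA library 2 (0.75) or 3 (0.58) or control library 1 (0.55) or 3 (0.75). The most abundant rows of this list did not pass the test: TTN (log2 fold change 0.10), the desmoplakin gene DSP (0.20) and the 14-3-3 gene YWHAG (-0.26). TTN, which encodes the muscle protein titin, has 8 genes opposite it.

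Among 13 tested kinases, phosphatase subunits and proteases that act on vimentin, 1 was called higher and 1 lower, with a median log2 fold change of -0.22. MAPKAPK2 encodes a stress kinase downstream of p38. It averaged 79.1 ± 12.6 CPM with the SOX9 sgRNA and 39.9 ± 17.6 CPM with the control sgRNA (log2 fold change 0.99, SE 0.27, edgeR adjusted p = 0.0077). That call was lost without SOX9 sgRNA library 3 (0.84) or control library 2 (0.77). CAPN1, the gene of a calcium-dependent protease that cuts vimentin, averaged 32.5 ± 8.99 CPM with the SOX9 sgRNA and 64.2 ± 19.0 CPM with the control sgRNA (log2 fold change -0.97, SE 0.29, edgeR adjusted p = 0.020). Its call was lost without SOX9 sgRNA library 2 (-0.78) or control library 1 (-0.72). CAPN1-AS1 opposite it did not pass the test (log2 fold change -0.58). The kinase gene AKT1 (0.42) and the calpain gene CAPN2 (0.30) did not pass it either.

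Of 12 tested mesenchymal marker genes other than VIM, 2 were called higher and 3 lower, so that they did not move one way, with a median log2 fold change of 0.42. THBS1 encodes thrombospondin, a secreted matrix protein. It was 36.1, 42.9 and 28.2 CPM in SOX9 sgRNA libraries and 80.1, 119 and 139 CPM in control libraries, with no overlap (log2 fold change -1.67, SE 0.25, edgeR adjusted p = 3.77e-07). ENSG00000259279 opposite THBS1 averaged 164 ± 14.9 CPM with the SOX9 sgRNA and 588 ± 9.59 CPM with the control sgRNA (log2 fold change -1.83, SE 0.11, edgeR adjusted p = 5.09e-22). CD44, the gene of a hyaluronan receptor, averaged 198 ± 9.73 CPM with the SOX9 sgRNA and 279.7 ± 29.3 CPM with the control sgRNA (log2 fold change -0.49, SE 0.13, edgeR adjusted p = 0.0069), a call lost without control library 3 (-0.41). CD44-AS1 opposite it was also lower (log2 fold change -0.74, SE 0.080, edgeR adjusted p = 2.96e-11). The actin-binding gene CALD1 rested on 59 counts (log2 fold change -1.75, SE 0.60, edgeR adjusted p = 0.046). It lost its call when any 1 of the 6 libraries was left out (-1.93 to -1.41).

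S100A4, a calcium-binding protein gene used as a fibroblast and mesenchymal mark, was higher. It was 202, 173 and 232 CPM in SOX9 sgRNA libraries and 113, 109 and 70.5 CPM in control libraries, with no overlap (log2 fold change 1.05, SE 0.17, edgeR adjusted p = 3.36e-06). The collagen gene COL6A2 averaged 39.3 ± 8.96 CPM with the SOX9 sgRNA and 16.5 ± 3.09 CPM with the control sgRNA (log2 fold change 1.23, SE 0.36, edgeR adjusted p = 0.018). The COL6A2 call was lost without SOX9 sgRNA library 1 (1.21) or 2 (1.06) or control library 3 (1.08). MSN, which encodes moesin and was among the most abundant of this list, did not pass the test (log2 fold change 0.33, SE 0.15, edgeR adjusted p = 0.18). Of 7 rows tested opposite genes of this list, 4 were called lower and 2 higher. Outside the rule for naming genes, and chosen after their values were seen, the rows opposite CCN2 (log2 fold change -1.52) and LOX (-1.92) were lower, and those opposite TPM1 (0.68) and ACTA2 (2.49) were higher. The row opposite LOX is itself the protein-coding gene SRFBP1.

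**Figure D4:**
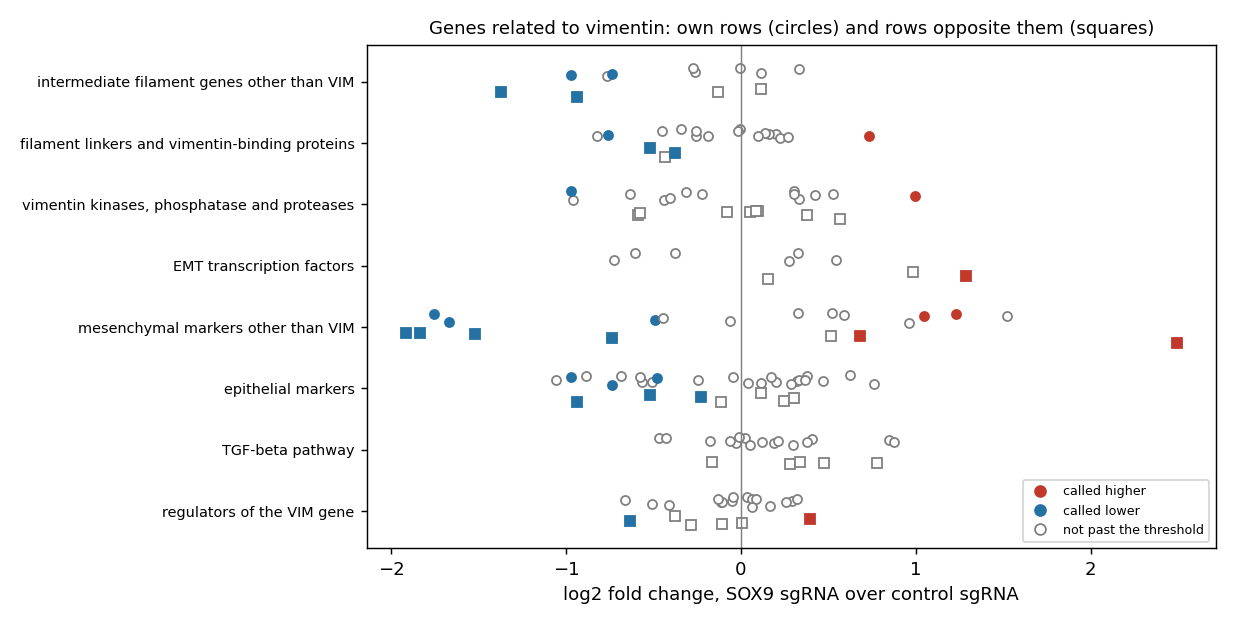
The x axis is the fitted log2 fold change, SOX9 sgRNA over control, of each tested gene of 8 lists (circles) and of the rows opposite them (squares), filled where the edgeR test called them. Called genes lie on both sides of 0, with 3 lower and 2 higher among mesenchymal markers. There are 0 called circles of the TGF-beta pathway, the EMT transcription factors and the regulators of VIM. Of all tested genes, 9.01% were called.

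Of 23 tested epithelial marker genes, 3 were called lower and the others did not pass the test, with a median log2 fold change of 0.04. Besides KRT19 and KRT7, the call went to SPINT1, the gene of a serine protease inhibitor. SPINT1 averaged 139 ± 10.8 CPM with the SOX9 sgRNA and 195 ± 14.3 CPM with the control sgRNA (log2 fold change -0.48, SE 0.15, edgeR adjusted p = 0.033). The SPINT1 call was lost without SOX9 sgRNA library 1 (-0.42) or 2 (-0.49) or control library 1 (-0.44) or 3 (-0.47). CDH1, which encodes E-cadherin, had 34.3 ± 7.06 CPM with the SOX9 sgRNA and 35.3 ± 4.30 CPM with the control sgRNA (log2 fold change -0.05, SE 0.32, edgeR adjusted p = 0.96). The summed level of 31 epithelial markers was 1895 to 2113 CPM over SOX9 sgRNA libraries and 2152 to 2234 CPM over control libraries, ranges that do not overlap. Relative to unscaled library totals they do overlap, at 1896 to 2095 over SOX9 sgRNA libraries and 1915 to 1998 over control libraries. Its part in the lower VIM and VIM-AS1 counts was not tested. The summed level of the 9 blood and endothelial markers was 12.7 to 30.1 CPM over SOX9 sgRNA libraries and 12.7 to 18.7 CPM over control libraries.

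None of 6 tested EMT transcription factors, 16 tested TGF-beta pathway genes and 16 tested regulators of the VIM gene was called by edgeR at an adjusted p of 0.05, nor by DESeq2. Of all tested genes edgeR called 9.01%, so the lack of calls in lists this short does not show that these genes were unchanged. At an unadjusted edgeR p of 0.05 there were 1, 2 and 0. ZEB1, SNAI2 and TWIST1, regulators that drive the transition and are named here outside the rule, had 49, 8 and 18 counts in all and were not tested. The most abundant EMT factors were GRHL2, which maintains epithelial identity (log2 fold change -0.38, SE 0.22, edgeR adjusted p = 0.34), SOX4 (-0.61, SE 0.25, adjusted p = 0.13) and SNAI3 (0.33, SE 0.35, adjusted p = 0.66). TGFB1, the ligand that induces vimentin in many epithelial cells, averaged 439.9 ± 42.6 CPM with the SOX9 sgRNA and 449 ± 44.4 CPM with the control sgRNA (log2 fold change -0.03, SE 0.10, edgeR adjusted p = 0.92). The receptor-regulated SMAD2 (-0.17) and the SMAD inhibitor SKI (0.21) did not pass the test. Of factors described at the VIM promoter, RELA, a subunit of NF-kappa-B, had a log2 fold change of -0.05 (SE 0.27), SP1, which binds GC boxes, 0.29 (SE 0.34) and JUN, a subunit of AP-1, 0.06 (SE 0.41), with groups that overlapped for each. SP1 and JUN are named for their sites searched above, after their values were seen. MYBL2 (0.17) and HDAC1 (-0.11) were among the most abundant of this list and did not pass it. HIF1A-AS1 was lower opposite HIF1A (log2 fold change -0.63), and HOOK2, itself protein-coding, was higher opposite JUNB (0.39), both named after their values were seen.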

How the data were processed

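The authors deposited raw counts, whole numbers for each gene, in 1 table per library, 6 in all. Per the submitters' processing notes, STAR 2.7.10a and featureCounts of Subread 1.6.2 were used on GRCh37. Per the file headers, fragments on exons of Ensembl release 75 were counted (featureCounts 1.6.2) with strand setting 1, each for every gene it overlapped. No multi-mapping option is named there. Per the labels' protocols, RNA came from RNeasy columns and libraries from a stranded SMARTer Pico kit.

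Counts were tested with edgeR 4.0.16 in R 4.3.3: filterByExpr, TMM scaling and a robust quasi-likelihood fit of the whole table, without a replicate block, with Benjamini-Hochberg adjustment over all tested genes and a threshold of 0.05. CPM was scaled by the TMM factors. Log2 CPM in the likeness search and in the replicate correlations uses a prior count of 2, and the fit kept its default. Exon overlaps came from bedtools 2.31.1 on the deposited coordinates. Symbols and biotypes came from reference tables, and 51452 identifiers had a symbol. The procedure was tested on simulated counts. Library totals of 776125 to 1018854 limit precision for rows with few counts, VIM among them.

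The genes, lists and tests were chosen with earlier results of these data known. The named genes were VIM, VIM-AS1 and SOX9, called genes of each list (at most 6 in each direction), the 3 most abundant of each list, genes with at least 10 counts within 500 kb, the 6 nearest rows by likeness, and a single gene opposite a named list gene. Exceptions are marked, and a few genes that the rule names are not reported here. Alternatives were other scalings, other filters, DESeq2 1.42.0, a replicate block and leaving out each library.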

Additional observations from a re-analysis of the deposited data

How the results depend on the processing

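VIM, VIM-AS1 and their sum were lower with the SOX9 sgRNA under every setting tried, and no direction turned. Scaled by library totals without TMM factors, which put the median over all genes at 0.19 in place of 0.01, the log2 fold change was -1.43 for VIM, -1.29 for VIM-AS1 and -1.29 for the sum. That scaling called 625 genes higher and 249 lower, and 9 listed genes higher and 3 lower. Without a filter on low counts, 151 genes and 2 listed genes were called higher. With a filter of 50 counts in 3 libraries, VIM-AS1 was at -1.40 and the sum at -1.41, and 5 listed genes were called lower. DESeq2 called 130 genes and 2 listed genes higher and 5 listed genes lower. Of the called listed genes named here, KRT19, S100A4 and THBS1 kept their call under every setting that tested them. KRT7, CAPN1, CD44, CALD1 and SPINT1 lost it with library totals, PPL, COL6A2, CALD1 and SPINT1 without a filter, PPL, CAPN1, COL6A2, CALD1 and SPINT1 with DESeq2, and CALD1 with the replicate block. The cause of these shifts was not tested, except that a stricter filter tests fewer genes. On the exon inside VIM alone, the VIM-AS1 level would be 3719 CPM per kb with the SOX9 sgRNA and 10283 with the control sgRNA.

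Leaving out 1 library at a time gave -1.72 to -1.55 for VIM, -1.52 to -1.45 for VIM-AS1, -1.52 to -1.46 for the sum and -0.28 to -0.04 for the log2 ratio, and 161 to 207 genes called higher, 364 to 430 called lower, 2 to 3 listed genes called higher and 4 to 8 called lower. Replicate numbers are shared between the groups, but same-numbered libraries did not deviate together (correlations of 0.0059, 0.017 and -0.030 over 4337 genes), and not every library correlated best with its own number. With a replicate block, VIM was at -1.62 and VIM-AS1 at -1.47, and 175 genes were called higher and 399 lower, with 4 and 7 listed genes. Low counts limit the VIM row more than that of VIM-AS1, since VIM held only 50 to 85 counts in SOX9 sgRNA libraries and 153 to 181 in control libraries.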

Other observations

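In 3 other genes of the SOX family, named after their values were seen, every SOX9 sgRNA library lay above every control library, as was so in either direction for 24.5% of all tested genes, yet edgeR and DESeq2 called none of the 6 tested members of the family, of which SOX4, SOX15 and SOX11 had an unadjusted edgeR p under 0.05. SOX15 averaged 31.5 ± 4.37 CPM with the SOX9 sgRNA and 16.96 ± 5.10 CPM with the control sgRNA (log2 fold change 0.89, SE 0.38, edgeR adjusted p = 0.14). SOX11 averaged 30.9 ± 0.624 CPM with the SOX9 sgRNA and 18.2 ± 6.68 CPM with the control sgRNA (log2 fold change 0.77, SE 0.38, edgeR adjusted p = 0.23). SOX12 averaged 24.3 ± 4.82 CPM with the SOX9 sgRNA and 13.4 ± 3.69 CPM with the control sgRNA (log2 fold change 0.84, SE 0.43, edgeR adjusted p = 0.25). SOX4 had a log2 fold change in the other direction and groups that overlapped, at 52.1 ± 7.84 CPM with the SOX9 sgRNA and 79.2 ± 24.8 CPM with the control sgRNA (log2 fold change -0.61, SE 0.25, edgeR adjusted p = 0.13). SOX6, the most abundant member, averaged 95.03 ± 29.8 CPM with the SOX9 sgRNA and 95.7 ± 13.96 CPM with the control sgRNA (log2 fold change 0.00, SE 0.21, edgeR adjusted p = 1.00).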
